A study of Mus musculus with 16 samples.

Results

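Kidney RNA levels of 9 genes of the megalin and cubilin uptake route were examined in mouse pups that lacked the water channel Aqp11. The genes were fixed by name as Lrp2, Cubn, Amn, Dab2, Clcn5, Ocrl, Lrpap1, Rab11a and Ehd1, out of 18193 genes named on the array, and every probe set annotated to 1 of them was kept. The array carries 27 such probe sets, and all 27 passed the filter on dim signals. Kidneys came from pups aged 7 days of strain C57BL/6J, 7 wild type (Aqp11+/+, 3 males and 4 females) and 9 knockout (Aqp11-/-, 5 males and 4 females). The mutation was made in 129/SvEvBrd and back-crossed, and the wild-type pups were littermates from crosses of heterozygotes. Each pup gave 1 array, no pup was treated, and the knockout lacks the gene in every cell of the body. The arrays measured whole kidney, in which fewer cells of a type and less RNA per cell cannot be told apart.

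Megalin (Lrp2) and cubilin (Cubn) are large receptors of the apical membrane of the proximal tubule, where they take up albumin, vitamin carriers and other small proteins from the glomerular filtrate. Cubilin has no membrane-spanning segment of its own and is carried to the surface by amnionless (Amn), while the chaperone RAP (Lrpap1) keeps megalin from binding ligands during its synthesis. The adaptor Dab2 links the receptors to clathrin-coated vesicles, the chloride-proton exchanger ClC-5 (Clcn5) serves the acidification of endosomes, and the phosphoinositide phosphatase OCRL (Ocrl) acts on early endosomes. Rab11a and Ehd1 serve the recycling of receptors to the surface. Loss of ClC-5 or OCRL in people causes a wasting of small proteins in the urine.

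RefSeq start sites of build GRCm38.p6 were given for 8 of the 9 genes, in 10 windows of 250 bases upstream of a start. Windows are printed for the receptors Lrp2 and Cubn and for their partners Amn and Lrpap1, because these genes fell together in the knockout and each has 1 start. Each is written 5' to 3' on the strand of its gene, with matches to the motifs searched in capitals. The Lrp2 window lies at chr2:69586030-69586279 (minus strand), the Cubn window at chr2:13491877-13492126 (minus strand), the Amn window at chr12:111270846-111271095 (plus strand) and the Lrpap1 window at chr5:35105700-35105949 (minus strand).
Lrp2: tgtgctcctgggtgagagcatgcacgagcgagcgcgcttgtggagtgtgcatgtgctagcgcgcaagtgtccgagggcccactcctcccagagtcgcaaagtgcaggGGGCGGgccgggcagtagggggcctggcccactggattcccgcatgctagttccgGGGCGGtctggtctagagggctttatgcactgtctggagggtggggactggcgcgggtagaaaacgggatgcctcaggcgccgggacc
Cubn: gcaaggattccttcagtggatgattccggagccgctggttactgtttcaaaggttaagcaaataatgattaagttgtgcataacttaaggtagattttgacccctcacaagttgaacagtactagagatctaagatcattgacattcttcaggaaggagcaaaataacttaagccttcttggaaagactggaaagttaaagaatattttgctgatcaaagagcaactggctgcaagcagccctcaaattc
Amn: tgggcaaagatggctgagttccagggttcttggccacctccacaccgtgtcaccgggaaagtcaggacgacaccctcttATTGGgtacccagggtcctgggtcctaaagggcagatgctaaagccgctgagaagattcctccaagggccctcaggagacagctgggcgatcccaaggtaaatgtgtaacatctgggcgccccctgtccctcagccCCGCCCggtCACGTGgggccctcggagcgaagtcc
Lrpap1: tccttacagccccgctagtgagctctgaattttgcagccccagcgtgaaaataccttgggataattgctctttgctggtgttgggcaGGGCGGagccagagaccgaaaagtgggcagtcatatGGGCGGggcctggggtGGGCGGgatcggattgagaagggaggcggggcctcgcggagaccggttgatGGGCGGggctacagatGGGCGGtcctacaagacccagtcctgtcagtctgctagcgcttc

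The 8 motifs were searched on both strands. They were the HNF1 core GTTAAT, the HNF1 full site (GTTAAT, any base, then ATTAAC), the HNF4 site CAAAGTCCA, the PPAR direct repeat (AGGTCA, any base, then AGGTCA again), the E-box CACGTG, the GC box GGGCGG, the TATA box TATAAA and the CCAAT box CCAAT. The full HNF1 site contains the core, and no other motif holds another. Lrp2 had 2 GC boxes, starting 143 and 88 bases before the start site, and Lrpap1 had 5, between 163 and 44 bases before it. Amn had 1 E-box, 1 GC box and 1 CCAAT box, whereas the Cubn window held none of the 8 motifs. GC boxes occur in 32.7% of all 32851 windows of this length, CCAAT boxes in 33.8% and E-boxes in 6.02%. Dab2 has 2 start sites on chromosome 15, and the window of the second held 1 HNF1 core, which 6.43% of all windows hold. The Lrp2 window was 66.4% G and C and the Cubn window 39.6%, against a median of 52.4% over all windows. A match of letters describes the window and does not show that a factor binds there.

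The labels were checked on Aqp11 itself. Its brightest probe set, 1429254_at, gave a log2 signal of 7.87 ± 0.16 (SD, n = 7) for wild-type kidneys. Knockout kidneys gave 2.94 ± 0.33 (SD, n = 9), at least 30.3-fold lower, with 7 of them at 2.78, the lowest value allowed. The dimmer Aqp11 probe set, 1447606_x_at, changed by -1.75 (limma adjusted p = 0.00333). Its groups overlapped (4.46 to 5.89 in wild type, 2.78 to 5.25 in knockout), with 5 knockout kidneys at the lowest value. Array brightness, as the trimmed mean signal before normalization, spanned 111 to 211 among the wild-type and 124 to 236 among the knockout arrays (exact permutation p = 0.929, two-sided). The ratio of the 3' to the 5' Gapdh control ran from 0.739 to 0.884 and from 0.706 to 0.908 (exact permutation p = 0.753, two-sided). Of 23193 probe sets tested, 1349 (5.82%) were lower in knockout and 1567 (6.76%) were higher at an adjusted p below 0.05 (limma, Benjamini-Hochberg over all probe sets tested). The number of animals limits the precision of each value.

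Both receptors, the cubilin partner, the clathrin adaptor and the megalin chaperone were lower in knockout kidneys, while 1 recycling gene was higher. Read from the brightest probe set of each gene, 5 of the 9 genes fell (Lrp2, Cubn, Amn, Dab2 and Lrpap1), by 1.31 to 1.65 times. Ehd1 rose by 1.22 times, and Clcn5, Ocrl and Rab11a did not pass the test. Over all 12511 genes tested, 7.46% fell and 8.52% rose. For each of the 5 genes that fell, all 9 knockout kidneys lay below all 7 wild-type kidneys, which held for 2.44% of all genes. None of the 9 lay above every wild-type kidney, as 2.91% of all genes did. By probe set, 12 of 27 fell, 1 rose and 9 lay below every wild-type array, against 5.82%, 6.76% and 1.81% of all probe sets, and none lay above every wild-type array, against 2.23%.

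**Figure D1:**
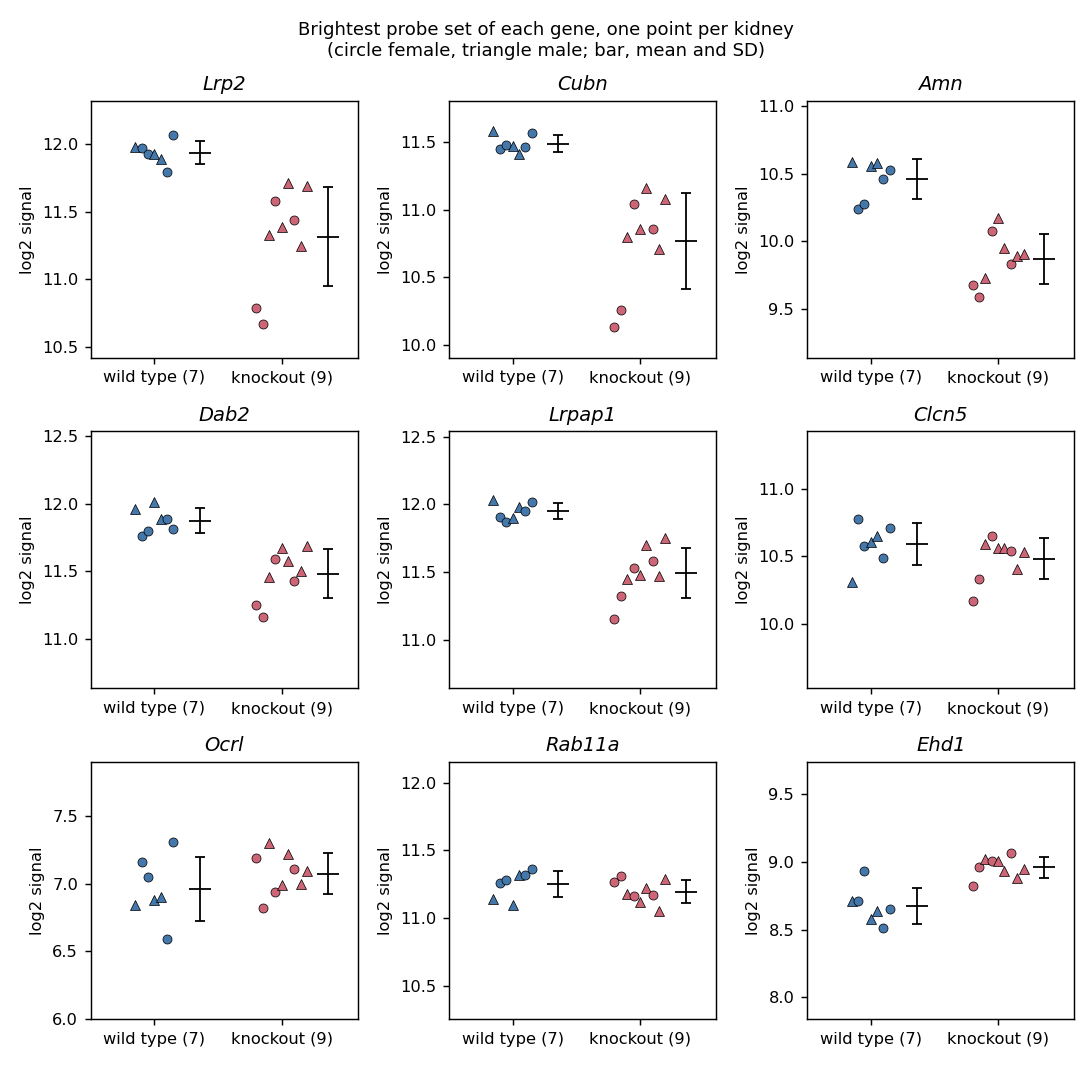
Log2 signal of the brightest probe set of each of the 9 genes, with 1 point per kidney (circles female, triangles male) and bars for the mean and SD of 7 wild-type and 9 knockout kidneys. The knockout points of Lrp2, Cubn, Amn, Dab2 and Lrpap1 lie below every wild-type point, and those of Ehd1 lie mostly above with an overlap.

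The receptors fell at 4 of their 5 probe sets. Lrp2 probe set 1452320_at had log2 signals from 11.79 to 12.07 in wild type (median 11.93) and from 10.67 to 11.71 in knockout (median 11.39), so the groups did not overlap. The change was -0.62 ± 0.12 (SE), or 1.54-fold lower (limma adjusted p = 0.0016). A second Lrp2 probe set, 1427133_s_at, changed by -0.64 ± 0.08 (SE, limma adjusted p = 2.16e-05), also with no overlap. The knockout kidneys varied more than the wild-type kidneys, with SDs of 0.37 and 0.09 at the first of these probe sets. The third, 1445901_at, was dim, with wild-type signals from 4.61 to 5.22 and knockout signals from 3.36 to 4.82. Its estimate had the same sign and a similar size (-0.53, 95% interval -1.01 to -0.05), yet the groups overlapped and it did not pass (limma adjusted p = 0.157).

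Cubn fell at both of its probe sets. Signals of 1452270_s_at ran from 11.41 to 11.58 in wild type (median 11.47) and from 10.13 to 11.16 in knockout (median 10.86). The wild-type kidneys lay within a narrow band, above all knockout kidneys, and the change was -0.72 ± 0.12 (SE), or 1.65-fold lower (limma adjusted p = 0.000276). At 1426990_at the wild-type range was 10.82 to 11.19 and the knockout range 9.41 to 10.52, again without overlap. The change there was -0.89 ± 0.14 (SE), or 1.86-fold lower (limma adjusted p = 0.000119).

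The partners of the receptors fell as well. Amn, read by the single probe set 1417920_at, ran from 10.24 to 10.59 in wild type (median 10.53) and from 9.59 to 10.17 in knockout (median 9.89). It was 1.51-fold lower, with a change of -0.59 ± 0.08 (SE, limma adjusted p = 3.22e-05) and no overlap. Lrpap1 probe set 1436609_a_at ran from 11.87 to 12.03 in wild type (median 11.95) and from 11.15 to 11.75 in knockout (median 11.48). No knockout kidney reached the lowest wild-type kidney, and the change was -0.46 ± 0.07 (SE), or 1.37-fold lower (limma adjusted p = 0.000105). Its other 3 probe sets changed by -0.46 (1426696_at, limma adjusted p = 0.00622), -0.30 (1452148_at, limma adjusted p = 0.0348) and -0.29 (1426697_a_at, limma adjusted p = 0.114), each with overlap. The call at 1426696_at was lost on the deposited scaling (limma adjusted p = 0.149), in males alone (0.0828), in females alone (0.0501) and in the dimmer arrays alone (0.104). That at 1452148_at was lost in 18 of 34 alternative settings, among them 10 of the 16 that leave out a single array.

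All 4 probe sets of the adaptor Dab2 were lower in knockout, by differing amounts. The brightest, 1420498_a_at, ran from 11.76 to 12.01 in wild type (median 11.89) and from 11.16 to 11.69 in knockout (median 11.50), a change of -0.39 ± 0.07 (SE), or 1.31-fold lower (limma adjusted p = 0.000548). Signals of 1423805_at ran from 10.18 to 10.66 and from 9.30 to 9.96, and it was 1.79-fold lower (-0.84, limma adjusted p = 8.9e-07). The intervals of these changes, -0.54 to -0.25 and -1.02 to -0.66, do not meet, so the size of the Dab2 fall depends on which probe set is read. The remaining Dab2 probe sets changed by -0.65 (1430604_a_at, limma adjusted p = 3.29e-06) and -0.54 (1429693_at, limma adjusted p = 0.00655), the first without and the second with overlap. The call at 1429693_at was lost on the deposited scaling (limma adjusted p = 0.296), in males alone (0.198) and in the dimmer arrays alone (0.16). A probe set name ending in _a_at marks probes shared by several transcripts of a gene, and names ending in _s_at or _x_at mark probes that may also match other sequences.

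The endosomal genes Clcn5 and Ocrl, both on the X chromosome, did not pass the test at any of their 7 probe sets. Clcn5 probe set 1420295_x_at ran from 10.31 to 10.78 in wild type (median 10.61) and from 10.17 to 10.65 in knockout (median 10.54). The groups overlapped over most of their range, and the 95% interval of the change, -0.26 to 0.05, covers no fall as large as that of Dab2's brightest probe set (-0.39). The other 3 Clcn5 probe sets changed by -0.11, -0.09 and -0.14 (limma adjusted p = 0.49, 0.64 and 0.822). Ocrl probe set 1438396_at ran from 6.59 to 7.31 in wild type (median 6.90) and from 6.82 to 7.30 in knockout (median 7.09). Its change was 0.11 (95% interval -0.10 to 0.32, limma adjusted p = 0.566). The other Ocrl probe sets changed by -0.13 (1457313_at, limma adjusted p = 0.669) and -0.30 (1438284_at, 95% interval -0.62 to 0.01, limma adjusted p = 0.226).

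Of the recycling genes, Rab11a did not pass and Ehd1 was higher at 1 of 4 probe sets. Rab11a probe set 1449256_a_at ran from 11.10 to 11.36 in wild type (median 11.28) and from 11.05 to 11.31 in knockout (median 11.18). The groups overlapped almost wholly, with a change of -0.06 and a 95% interval of -0.17 to 0.05 (limma adjusted p = 0.54). The other Rab11a probe set, 1434549_at, changed by -0.26 (95% interval -0.52 to 0.00, limma adjusted p = 0.216). Ehd1 probe set 1416010_a_at ran from 8.51 to 8.93 in wild type (median 8.65) and from 8.82 to 9.07 in knockout (median 8.96). A single wild-type kidney reached into the knockout range, and the change was 0.29 ± 0.06 (SE), or 1.22-fold higher (limma adjusted p = 0.0037). The other Ehd1 probe sets changed by 0.20 (1416011_x_at), 0.22 (1448175_at) and 0.05 (1416012_at), with limma adjusted p of 0.2, 0.236 and 0.9. The Ehd1 call was lost on the deposited scaling (limma adjusted p = 0.905), in females alone (0.239), in the brighter arrays alone (0.191) and when the probe sets of a gene were averaged.

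**Figure D2:**
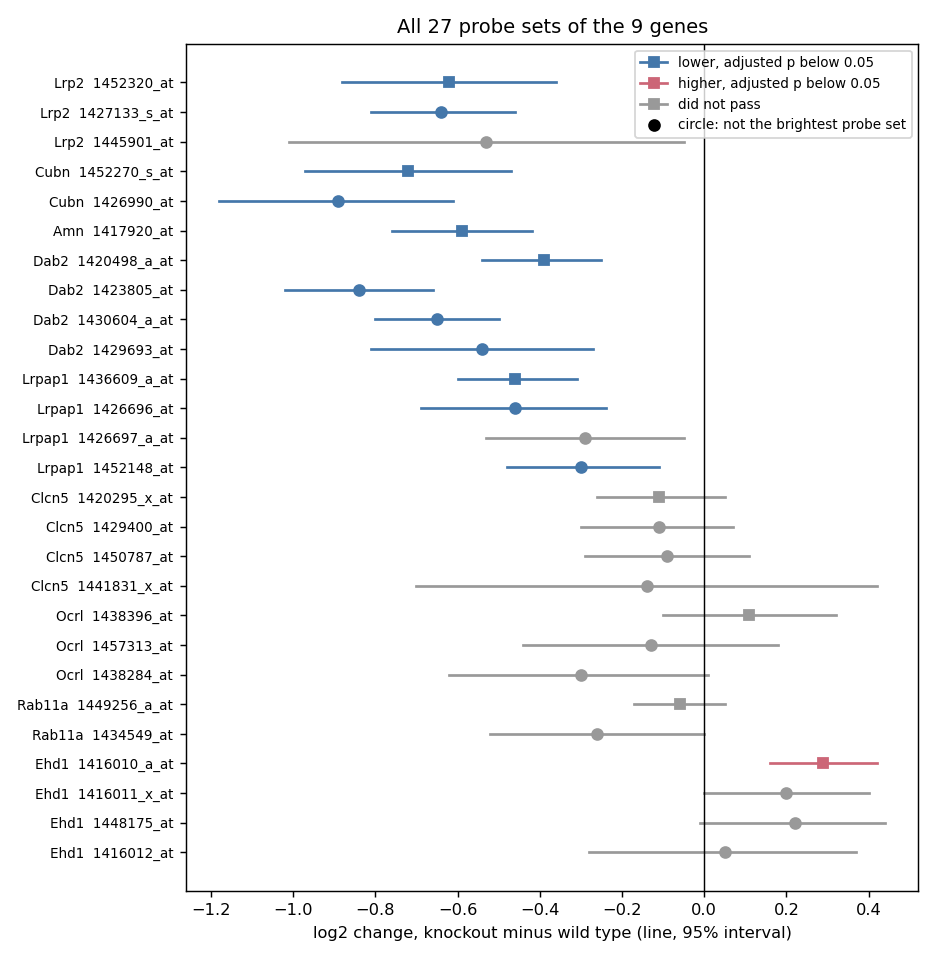
Log2 change, knockout minus wild type, of all 27 probe sets with its 95% interval from limma (squares mark the brightest probe set of a gene). Blue marks the 12 lower and red the 1 higher at an adjusted p below 0.05, and the grey probe sets of Clcn5, Ocrl and Rab11a have intervals that reach 0.

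Scaling between arrays mattered for how many of these calls were made, and less for their size. With intensities left on the deposited scaling, the changes of the brightest probe sets were -0.63 for Lrp2, -0.74 for Cubn, -0.58 for Amn, -0.41 for Dab2 and -0.47 for Lrpap1. On that scaling 2 of the 5 falls passed, those of Lrp2 (limma adjusted p = 0.0252) and Cubn (0.00873), while Amn (0.113), Dab2 (0.324) and Lrpap1 (0.113) did not.

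The fall was unequal among the knockout kidneys. Kidneys 1-2 and 2-3, both female, were the lowest for each of the 5 genes that fell, with Lrp2 at -1.15 and -1.26 and Cubn at -1.36 and -1.23 from the wild-type mean. Among the other 7, Lrp2 lay between -0.68 and -0.23 and Cubn between -0.77 and -0.33. Kidney 3-4 was nearest to wild type for both receptors, and kidney 5-2 for Dab2 (-0.19) and Lrpap1 (-0.20). At the brightest Rab11a probe set, kidneys 1-2 and 2-3 lay near the wild-type mean (0.02 and 0.05), and 2-3 was the highest knockout. At Rab11a 1434549_at they were the highest knockout kidneys (9.38 and 9.36, against 8.58 to 9.17 in the others). Clcn5 was lowest in kidneys 1-2 and 2-3 (-0.42 and -0.26). Their arrays had trimmed mean signals of 236 and 211, against 124 to 208 on the other knockout arrays, and Gapdh ratios of 0.736 and 0.706, against 0.756 to 0.908. Their ratios of the 3' to the 5' actin control, 1.22 and 1.23, lay within those of the other knockout arrays (1.13 to 1.25). The part of array brightness and RNA quality in their low values was not tested. Without these kidneys, an alternative added after their values were seen, the changes were -0.45 for Lrp2 (limma adjusted p = 0.00016), -0.56 for Cubn (7.35e-06), -0.52 for Amn, -0.32 for Dab2 and -0.38 for Lrpap1, and all 5 still passed. In the 8 brighter arrays alone (4 of each genotype), Lrp2 changed by -0.85 and Cubn by -0.92. In the 8 dimmer arrays alone (3 wild type and 5 knockout), they changed by -0.43 and -0.55, and all 5 genes passed in each set.

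**Figure D3:**
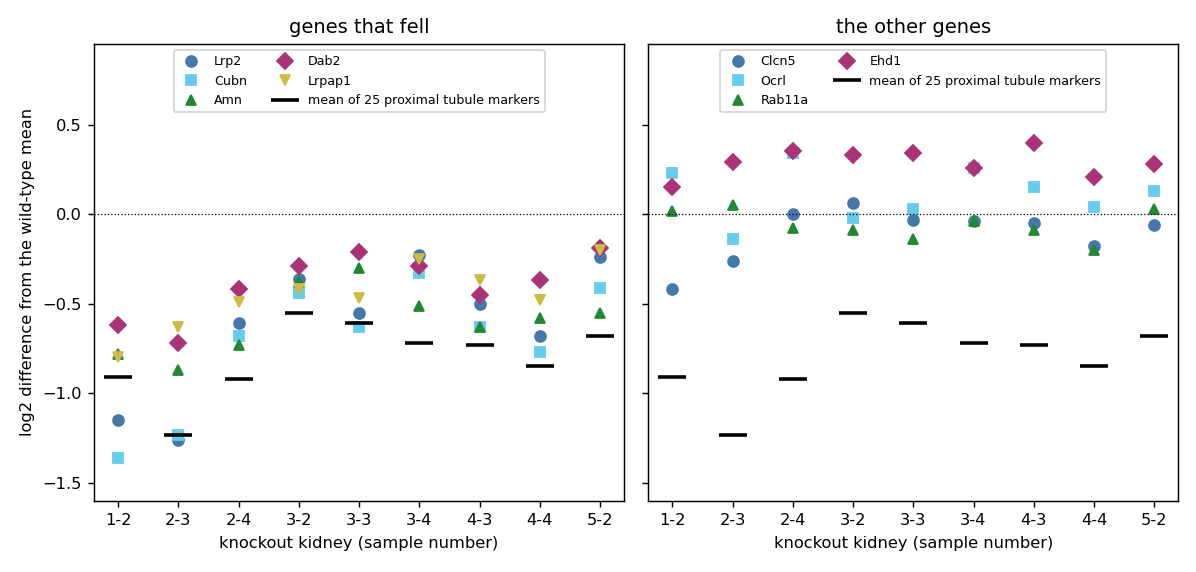
Difference of each knockout kidney from the wild-type mean (log2, brightest probe set), for the 5 genes that fell on the left and the other 4 on the right, with a black bar for the mean of 25 proximal tubule marker genes. Kidneys 1-2 and 2-3 are lowest for the genes on the left, and the bar lies between -1.23 and -0.55.

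No difference of the knockout effect between the sexes passed the test. Lrp2 changed by -0.82 in females and -0.46 in males, a difference of 0.36 ± 0.23 (SE, limma adjusted p = 0.545), and Cubn by -0.92 and -0.56 (0.36 ± 0.22, limma adjusted p = 0.528). Both of the lowest knockout kidneys were female. Of the brighter knockout arrays, 1-2, 2-3 and 3-2 were female and 3-3 male, and of the dimmer ones only 4-3 was female. The splits by sex and by array brightness thus divide the knockout kidneys in nearly the same way, and their parts were not separated. The smallest adjusted p for a difference between sexes was that of Rab11a 1434549_at, at 0.02 in females and -0.51 in males (limma adjusted p = 0.473). Over all 23193 probe sets, limma made 0 interaction calls after adjustment, and 10.5% had an unadjusted p below 0.05.

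Other genes of the proximal tubule were lower in the same kidneys. Of 18 tested markers of its S1 and S2 segments, 16 fell and none rose (median change -0.77), and of 7 tested markers of S3, 5 fell (median -0.56). Over all genes 7.46% fell and 8.52% rose, and the median change was 0.00. Slc34a3, a phosphate transporter, changed by -2.42 (limma adjusted p = 7.7e-08) and Slc22a8, an organic anion transporter, by -0.92 (1.14e-07). Slc7a13, an amino acid transporter of S3, changed by -1.55 (limma adjusted p = 1.16e-07), and the protease gene Napsa by -0.49 (4.91e-06). The mean over these 25 markers was 10.03 ± 0.12 (SD, n = 7) for wild-type kidneys and 9.24 ± 0.21 (SD, n = 9) for knockout kidneys, with ranges of 9.90 to 10.24 and 8.80 to 9.48 that did not overlap. In single kidneys it was lowest in knockout 2-3 (-1.23 from the wild-type mean), followed by 2-4 (-0.92) and 1-2 (-0.91). No marker of the tubule was at the floor on all arrays of a group.

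Set against that marker mean on each array, Lrp2 and Cubn were not separated from it, and the other 7 genes were higher. Lrp2 relative to the markers changed by 0.18 ± 0.10 (SE, limma adjusted p = 0.0903) and Cubn by 0.08 ± 0.10 (0.453). Amn was higher by 0.21 ± 0.08 (SE, limma adjusted p = 0.0213), Lrpap1 by 0.34 ± 0.09 (0.000988) and Dab2 by 0.40 ± 0.08 (3.82e-05), so with all 25 markers these genes fell less than the marker mean did. Relative changes were 0.69 for Clcn5, 0.74 for Rab11a, 0.91 for Ocrl and 1.09 for Ehd1. This scale subtracts a falling mean, and 94.1% of all 12511 genes were higher on it and 0.328% lower, and the 7 of 9 is read against that share. On the same scale, 6 of the 9 (all but Lrp2, Cubn and Amn) lay above every wild-type kidney and none below, against 60.9% and 0.0879% of all genes. The choice of markers moved these values. With S3 markers alone the relative changes of Lrp2, Cubn and Amn were -0.10, -0.20 and -0.07, Lrpap1 (0.06, limma adjusted p = 0.607) and Dab2 (0.12, 0.262) no longer passed, and 4 genes were higher. With S1 and S2 markers alone Lrp2 was higher by 0.29 (limma adjusted p = 0.00607). Lrp2 also passed with the median of the markers (0.36) and without knockout 1-2 (0.23) or 2-3 (0.20), and without both Lrp2 (0.27) and Cubn (0.16, limma adjusted p = 0.0485) were higher. Amn no longer passed without wild type 2-2 (limma adjusted p = 0.0521).

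Markers of other cells moved with genotype too. Of 12 macrophage markers 11 rose (median 1.62), among them the class II chaperone gene Cd74 (2.06, limma adjusted p = 8.26e-10) and the complement gene C1qa (1.73, 4.31e-09), and their summed signal spanned 2166 to 4359 among the wild-type and 5809 to 9473 among the knockout arrays. Of 7 injured tubule markers 6 rose (median 2.18), with a summed signal of 704 to 1152 and 2601 to 4087, led by Havcr1 (at least 38.4-fold, limma adjusted p = 6.04e-11) and the protease inhibitor gene Timp1 (2.34, 3.89e-10). Smaller parts moved of the lists for podocytes (2 of 5 lower), endothelium (4 of 8 lower), thick ascending limb and distal tubule (3 of 7 lower), collecting duct (2 lower and 1 higher of 7) and fibroblasts (3 of 8 higher). Over all genes 7.46% fell and 8.52% rose, and each count named here lies above the share in its direction. Wild types 2-1 and 2-2 stood above the other wild types, with mean log2 signals of 7.96 and 7.94 against 6.99 to 7.27 for the macrophage markers and of 6.29 and 6.22 against 5.42 to 5.97 for the injured tubule markers. Without them, an alternative added after this was seen, Lrp2 changed by -0.62 (limma adjusted p = 0.0084), Cubn by -0.73 (0.00167), Amn by -0.67, Dab2 by -0.43 and Lrpap1 by -0.48, and all 5 passed. None of these markers was at the floor on all arrays of a group. The part of these shifts in cell markers in the fall of the receptors was not tested.

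Among the 16 arrays, the deviations of Lrp2 and Cubn from their genotype means followed each other closely (Pearson r = 0.97). This and the following correlations are descriptions over 16 arrays that share tissue and array design. The r of Lrp2 and Cubn was 0.93 over the 14 arrays left without knockouts 1-2 and 2-3. Lrp2 also followed Lrpap1 (0.88, and 0.79 without those 2), and Cubn followed Lrpap1 (0.91 and 0.77). Amn was nearest to Dab2 (0.83 and 0.74), and its r with Lrp2 was 0.60, or 0.17 without those kidneys. For Dab2 and Lrp2 the r of 0.80 became 0.30, so that relation rests largely on the 2 kidneys. Rab11a followed neither receptor (-0.23 and -0.26), and without those kidneys its r was 0.42 with Lrp2 and 0.37 with Cubn.

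The 5 genes most like Lrp2 in these deviations were Cldn2 (r = 0.97), Cubn (0.97), Pdzk1 (0.97), Hadh (0.95) and Mmut (0.95). For Cubn they were Lrp2 (0.97), Hadh (0.97), Mmut (0.96), Pdzk1 (0.95) and Slc34a1 (0.94). Cldn2 encodes a tight junction claudin, Pdzk1 a scaffold of brush border transporters, Slc34a1 a phosphate transporter, Hadh an enzyme of fatty acid oxidation and Mmut methylmalonyl-CoA mutase. Without knockouts 1-2 and 2-3 the r with Lrp2 was 0.96 for Cldn2 and between 0.80 and 0.93 for the other 4. The r of Cubn with its 5 genes then ran from 0.76 (Pdzk1) to 0.93 (Lrp2). Changes between genotypes were smaller than that of Lrp2 (-0.62) for Cldn2 (-0.40), Pdzk1 (-0.43), Hadh (-0.39) and Mmut (-0.38). Each was past the threshold (limma adjusted p = 0.013, 0.0114, 0.00839 and 0.00234). Slc34a1 changed by -0.64 (limma adjusted p = 5.1e-05), near the change of Lrp2.

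Counts in 6 lists of further genes of the uptake route are read against the 7.46% of all genes that fell and the 8.52% that rose. In the LDL receptor family and its sortilin relatives, 3 of 13 tested genes rose and 1 fell (median 0.12). Lrp1, a large endocytic receptor of many cell types, was 1.35-fold higher (0.43 ± 0.07, SE, limma adjusted p = 0.000375). Sorcs2 changed by 0.46 (limma adjusted p = 0.0035) and Lrp8, a receptor for reelin, by 0.88 (0.0131), with 1 wild-type array of Lrp8 at the floor. Vldlr, the very low density lipoprotein receptor, changed by -0.28 (limma adjusted p = 0.00743). Of 21 clathrin coat and adaptor genes, 2 rose and none fell (median 0.06), and the rises are near the share over all genes. They were those of Ap2b1 (0.28, limma adjusted p = 0.00944) and Ap2m1 (0.28, 0.0155), which encode subunits of the adaptor complex AP-2. Other AP-2 genes, Ap2a1 (0.21), Ap2a2 (0.01) and Ap2s1 (0.05), did not pass.

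Among the endosome lists, medians lay between -0.13 and -0.01. Of 16 early endosome and phosphoinositide genes, only Anxa2, a membrane-binding annexin, passed (0.39, limma adjusted p = 0.00356). Of 25 recycling genes, 3 fell and 1 rose (median -0.01), near the shares over all genes. The falls were those of the Rab11 effectors Rab11fip4 (-0.46, limma adjusted p = 0.000623) and Rab11fip3 (-0.39, 0.00697) and of Ehd3 (-0.38, 0.000517), which also stands in the endothelium list, and the rise was that of Mical1 (0.41, 0.0455). Of 24 acidification genes, 7 fell and none rose (median -0.13), against 7.46% and 8.52% of all genes. They included the sodium-proton exchanger gene Slc9a3, which was 1.52-fold lower (-0.60, limma adjusted p = 4.89e-05). Among subunits of the vacuolar proton pump, Atp6v1b1 changed by -0.41 (limma adjusted p = 0.000274), Atp6v0a4 by -0.49 (0.00304) and Atp6v1b2 by -0.29 (0.00314). Atp6v1b1 and Atp6v0a4 are also subunits of the intercalated cells of the collecting duct. In the collecting duct list, Slc4a1, the anion exchanger of intercalated cells, changed by -0.88 (limma adjusted p = 5.76e-06), and Foxi1, their transcription factor, by -0.19 (0.354). The part of these cells in the acidification count was not tested.

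Genes for ligands of the receptors and their carriers were measured as transcripts made in the kidney, not as filtered protein. Of 12 tested, 2 rose and 1 fell (median -0.04), and the fall is near the share over all genes (7.46%). Clu, which encodes the secreted chaperone clusterin, was 1.7-fold higher (0.76 ± 0.08, SE, limma adjusted p = 5.17e-07). B2m, the light chain of class I molecules, changed by 0.28 (limma adjusted p = 0.00728). Tcn2, the vitamin B12 carrier transcobalamin, changed by -0.44 (limma adjusted p = 0.00168).

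**Figure D4:**
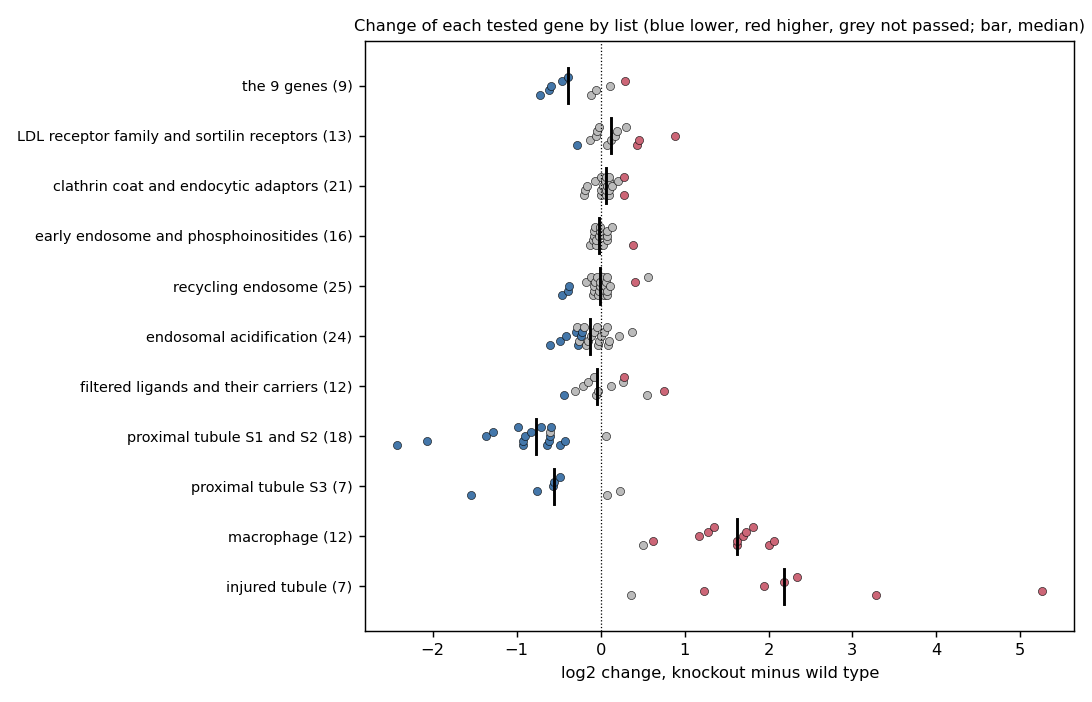
Log2 change, knockout minus wild type, of each tested gene (brightest probe set) in the 9 genes, 6 lists of the uptake route and 4 lists of cell markers, with a black bar for the median of each list. The 6 route lists have medians between -0.13 and 0.12, the proximal tubule lists lie at -0.77 and -0.56, and the macrophage and injured tubule lists at 1.62 and 2.18.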

How the data were processed

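RNA of 16 kidneys was hybridised singly to Affymetrix Mouse Genome arrays, and the authors obtained the deposited signal intensity values with GCOS 1.3, per the submitters' processing notes. The sources used here do not say whether arrays had been scaled to each other. Their 2% trimmed means differed 2.13-fold, so the intensities were quantile normalized, floored at 6.88 (the 20th percentile over all arrays) and taken as log2. The change of a dim gene is understated by the floor, and quantile normalization would hide a change in total mRNA. Of 45101 probe sets, 34945 named 1 gene in the platform annotation given with the data, and 23193 of these, above their array's 40th percentile on at least 7 arrays, were tested. Each gene was read from its brightest probe set over all arrays, and every probe set of the 9 genes was also given.

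Genotypes were compared in limma 3.58.1 (R 4.3.3) with a linear model of genotype alone and moderated variances that follow the mean signal, with Benjamini-Hochberg adjustment over all probe sets tested, also for values relative to the markers. Shares over all 12511 genes read each gene from its brightest probe set. An overlap means that the groups' ranges met. Samples were grouped by the genotype in their titles, and each array is a separate pup. The script was tested on simulated data. The 9 genes and all lists were chosen with earlier results of these data known. Lists named up to 4 changed genes by smallest p, and marker lists up to 2 or none. Foxi1, which did not pass, was named beyond this rule, beside Slc4a1. Alternatives covered normalization, floor, filter, probe set choice, sex, array brightness, variance model and each array left out, and, added after seeing the data, knockouts 1-2 and 2-3 left out together and wild types 2-1 and 2-2 left out together. Promoter windows came from a RefSeq table of GRCm38.p6, which had none for Ehd1.

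The first sample numbers run from 1 to 5, and 5 pairs were mated, but the labels do not say that a number marks a litter. Arrays were split into 8 brighter and 8 dimmer at the widest ratio between neighbouring trimmed mean signals (149 and 171). Correlations used deviations from the genotype mean. Figures were drawn with matplotlib 3.10.9.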

Additional observations from a re-analysis of the deposited data

Results flagged for a closer look

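Among 54 groups of arrays (each of the 27 probe sets in each genotype), 2 held 1 array far from the others, and chance flags about 1 group in 20. At Ocrl probe set 1457313_at, knockout 2-4 had a log2 signal of 4.89, while the other knockout kidneys lay between 5.46 and 6.03. The gap was 0.50 of the range, just past the 95% critical value of Dixon's test. At Lrpap1 probe set 1426697_a_at, wild type 5-1 had 10.09, while the others lay between 9.46 and 9.73, a gap of 0.57 of the range, also just past it.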

How the results depend on the processing

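The falls of Lrp2 1452320_at and 1427133_s_at, of both Cubn probe sets and of Dab2 1423805_at and 1430604_a_at kept their direction and passed under every alternative run. The counts of the 9 genes were 5 lower and 1 higher without any single array, and 2 lower and 0 higher on the deposited scaling. The count higher was also 0 with the mean of the probe sets of a gene, in females alone and in the brighter arrays alone. Probe sets lower and higher (1349 and 1567) numbered 174 and 350 on the deposited scaling, 708 and 980 in males alone, 313 and 425 in females alone, 790 and 841 in the brighter arrays and 521 and 820 in the dimmer arrays. Fewer arrays entered the last 4 fits, and the cause of the loss on the deposited scaling was not tested. Without 1 array they ran from 1060 to 1379 and from 1322 to 1614.

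Changes of single probe sets that did not pass turned sign as follows. In males alone Clcn5 1420295_x_at and 1429400_at were at 0.01, and in females alone Ocrl 1438396_at was at -0.01 and Rab11a 1434549_at at 0.02. In the brighter arrays Clcn5 1441831_x_at was at 0.42, Ocrl 1457313_at at 0.18, Rab11a 1434549_at at 0.04, Rab11a 1449256_a_at at 0.02 and Ehd1 1416012_at at -0.14. In the dimmer arrays Clcn5 1450787_at was at 0.08, and Rab11a 1434549_at passed at -0.56 (limma adjusted p = 0.0442). Ehd1 1416011_x_at passed at 0.28 without wild type 5-1 (limma adjusted p = 0.0256). Lrpap1 1426697_a_at passed with array brightness as a block (-0.33, limma adjusted p = 0.0216), in the brighter arrays (-0.47, 0.0216) and without knockout 5-2 (-0.34, 0.0493). Ehd1 1416012_at ran from -0.07 to 0.13 without 1 array, at -0.02 without wild type 4-1 and -0.07 without 4-2, and was at -0.01 without knockouts 1-2 and 2-3. Relative to S3 markers alone, Lrp2 (-0.10), Cubn (-0.20) and Amn (-0.07) turned sign, and 4 of the 9 genes were higher in place of 7. Of the genes that turned sign there, Amn had passed with all markers (0.21, limma adjusted p = 0.0213), while Lrp2 and Cubn had not.

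Of 13 pairs of a wild-type and a knockout array with the same first number, 5 correlated over 0.1 (range -0.16 to 0.30). They were not compared with pairs of differing number, so these values cannot show whether a number marks a shared litter. The number was not taken as a pairing in the main fit. With it as a replicate block, 1697 probe sets were lower and 1866 higher, and the 9 genes again counted 5 lower and 1 higher.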
